A study of Danio rerio with 10 samples.

Results

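Cell cycle genes were followed in single-cell RNA sequencing of whole zebrafish embryos at the beginning of somite formation. The genes were taken from a list of 37 symbols, 15 of genes that act in S phase and 22 of genes that act in mitosis. All 37 symbols were found, and they belonged to 39 of the 25107 gene IDs in the count tables, since rrm2 and ube2c each stood for a pair of IDs. The S-phase genes thus had 16 IDs and the mitosis genes 23. Of the 39 IDs, 38 passed the filter on low counts in each of the comparisons as first made, and the second ID of ube2c (ENSDARG00000101618) passed it in none.

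A dividing cell copies its DNA in S phase and separates the copies in mitosis. Before S phase, Cdc6 loads the ring of Mcm proteins onto origins of replication, and cyclin E (Ccne1, Ccne2) with its kinase triggers the start. The Mcm ring becomes the active helicase when Cdc45 and the GINS complex, of which Gins2 is a subunit, join it. Pcna is the clamp that holds DNA polymerases on the template, while ribonucleotide reductase (Rrm1, Rrm2) and thymidylate synthase (Tyms) supply deoxynucleotides. Entry into mitosis is driven by Cdk1 with cyclins A and B (Ccna2, Ccnb1), and by the kinases Plk1, Aurka and Aurkb. Top2a untangles the chromosomes, Kif11, Kif23, Tpx2 and Nusap1 act on the spindle, and Cenpe and Cenpf act at the kinetochore. The spindle checkpoint (Bub1, Bub1bb, Bub3, Mad2l1, Ttk) restrains Cdc20, which together with the ubiquitin-conjugating enzyme Ube2c brings about the destruction of cyclin B. Birc5a is a partner of Aurkb, and Mki67 coats mitotic chromosomes and is the usual marker of proliferating cells. These roles are best known from yeast and mammalian cells. In the zebrafish embryo, the hatching gland, the notochord and the adaxial cells (the first muscle precursors, which lie beside the notochord) are known for leaving the cell cycle early.

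The study compared mutants of dact1 and dact2, which encode regulators of Wnt signalling, with mutants of gpc4, which encodes a glypican, at a time when both have a shortened body axis. Each of 10 embryos was dissociated alone and gave its own droplet library, 4 from wildtype embryos, 3 from dact1/2 mutants (homozygous for deletions that leave premature stop codons in both genes) and 3 from gpc4 mutants (homozygous for the insertion allele hi1688Tg). All were whole embryos without any treatment. The sample labels give the strain as Tubingen, the methods name Tubingen or AB for the lines, and the stage is given as 3 somites in the sample labels and as 4 in the methods. The mutants were recognised by their short axis and could not be genotyped, and the embryo is the replicate throughout.

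Of 21980 deposited barcodes, 16449 cells were kept, between 942 and 2634 in an embryo, with between 10168109 and 18839132 UMIs (unique molecular identifiers, each standing for a captured RNA molecule) per embryo. The median number of UMIs in a cell lay between 4221 and 11027. Across libraries, 29 barcodes occurred more than once, which touched 58 kept cells. The targeted genes went with the labels where their RNA was lost: dact1 was between 6.5 and 8.0 CPM (UMIs of the gene per 1000000 UMIs) in wildtype embryos and between 2.6 and 3.0 in dact1/2 mutants, and gpc4 was between 50.7 and 78.8 in wildtype embryos and between 13.5 and 17.7 in gpc4 mutants. RNA of dact2 overlapped between the groups. Levels are given as CPM of the embryo or of the named cells of that embryo.

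Wildtype replicate 1 stood apart in its cell cycle genes before any comparison was made. It was the highest of all 10 embryos for 30 of the 38 IDs that passed the filter, 11 of 16 in S phase and 19 of 22 in mitosis. Among the 12550 genes with at least 200 UMIs it was the highest for 31.3%. The median ratio of this embryo to the mean of the other wildtype embryos was 1.23 for S-phase genes, 1.58 for mitosis genes and 0.966 for all genes. Other genes of replication and mitosis from longer lists had median ratios of 1.12 and 1.27, while genes of cell cycle exit stood at 1.00. Its cells held a median of 10968 UMIs, like the 11027 of wildtype replicate 4, and its median share of mitochondrial UMIs was 1.63%, against 0.84% to 1.39% in the other embryos. After every cell was thinned to 3000 UMIs, the summed mitosis genes were at 3973 CPM in this embryo. The other wildtype embryos lay between 2525 and 2932. Thinning gives cells equal weight but keeps the expected share of each gene in a cell, so these values do not test sequencing depth. The thinning left out the cells with fewer UMIs, which were 86, 65, 333 and 192 in wildtype replicates 1 to 4. The part of mitochondrial content in the difference was not tested. The study's heatmaps by lineage hold wildtype replicates 2 to 4, so the comparisons with mutants were made with these first and then with all 4.

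**Figure D1:**
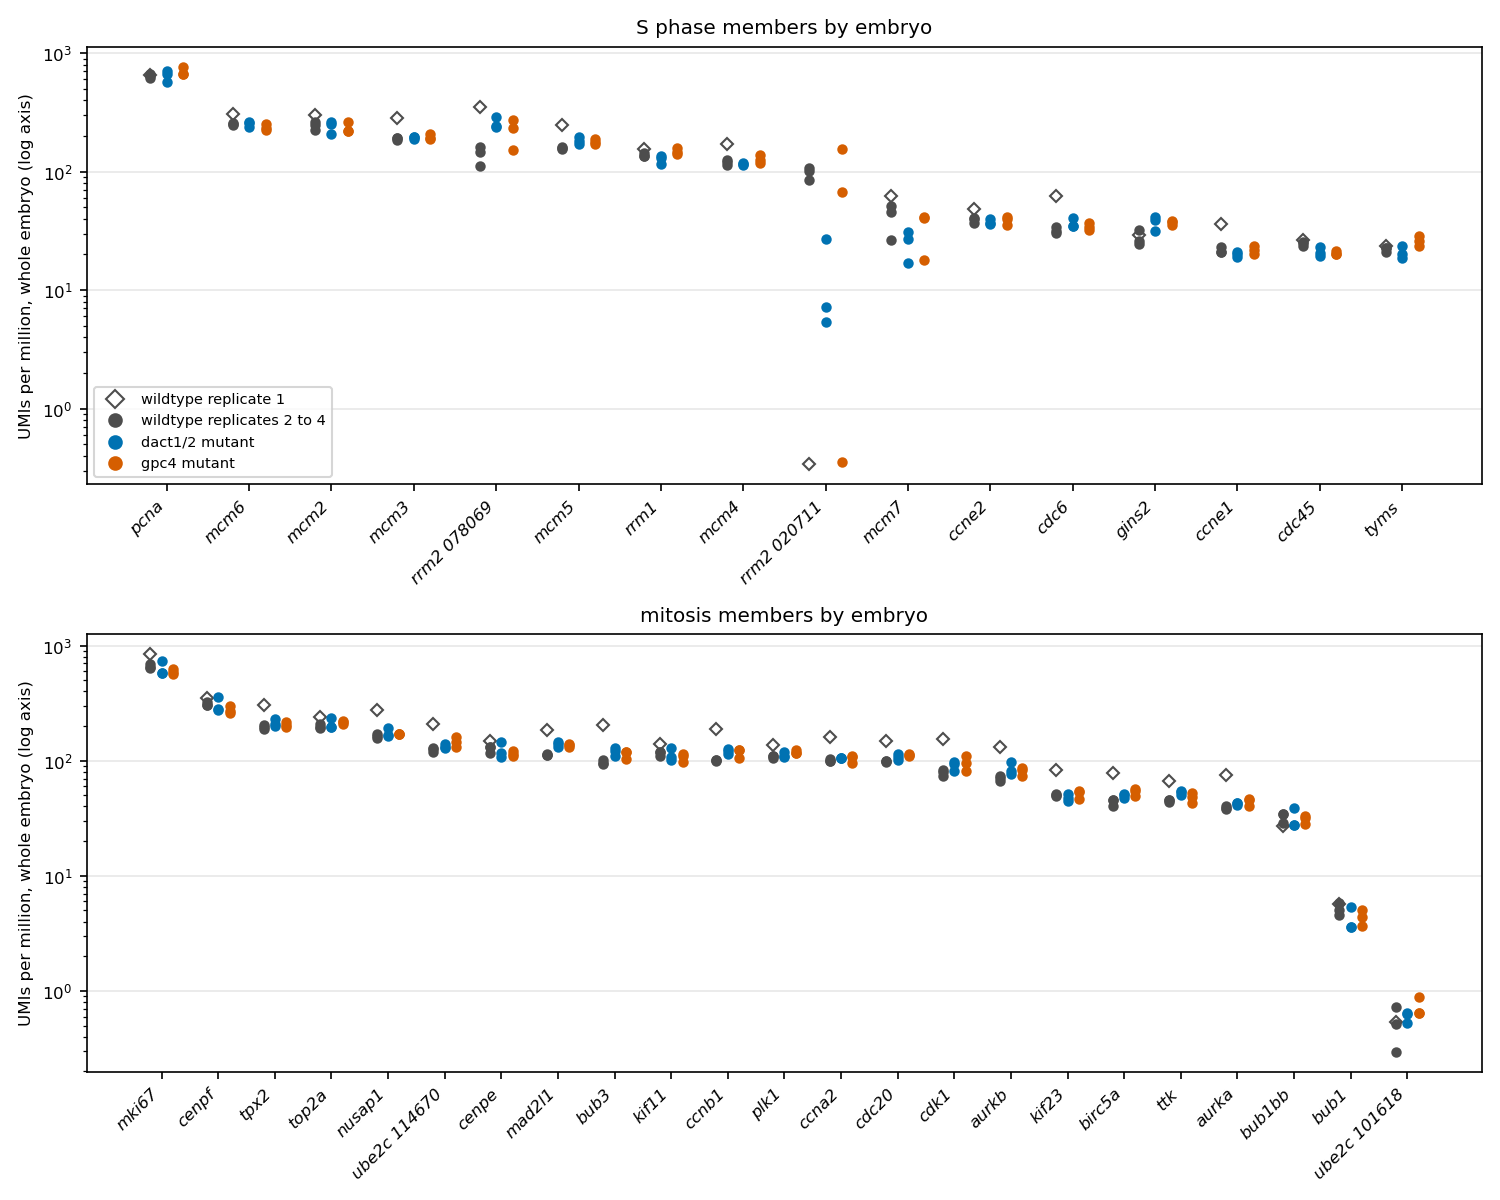
CPM of each S-phase gene (top) and mitosis gene (bottom) over all kept cells of an embryo, on a log axis, with 1 point per embryo, colored by genotype. Digits after rrm2 and ube2c are the last of the gene ID. For most genes the point set apart above the others is wildtype replicate 1, and the widest spread is that of rrm2 ENSDARG00000020711, from 0.3 to 153.7.

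Summed over the 16 S-phase IDs, RNA reached 2766.0 CPM in wildtype replicate 1 and 2114.8, 2216.5 and 2233.1 in wildtype replicates 2 to 4. In dact1/2 mutants the sums were 2076.4, 2246.4 and 2356.7, and gpc4 mutants had 2266.3, 2256.7 and 2457.8. The 3 groups overlapped once wildtype replicate 1 was included, and without it every gpc4 mutant lay above every wildtype embryo. Summed over the 23 mitosis IDs, RNA reached 4153.0 CPM in wildtype replicate 1, against 2893.7, 2898.6 and 2840.1 in wildtype replicates 2 to 4, 2869.7, 3240.3 and 2909.7 in dact1/2 embryos, and 2876.4, 2924.2 and 3007.6 in gpc4 embryos. Leaving out wildtype replicate 1, the highest embryo exceeded the lowest by 18.4% for S phase and 14.1% for mitosis. In such sums, fewer cells in a phase and less RNA per cell cannot be told apart.

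The most abundant S-phase gene was the clamp gene pcna. In wildtype replicates 1 to 4 it stood at 659.7, 612.3, 644.3 and 660.1 CPM, in dact1/2 mutants at 574.7, 665.9 and 702.9, and in gpc4 mutants at 666.5, 670.4 and 765.1. All gpc4 mutants were above all wildtype embryos, and dact1/2 mutants lay on both sides of them. The helicase gene mcm6 followed, at 308.6, 251.3, 259.6 and 246.5 CPM in wildtype embryos, 235.8, 264.2 and 259.1 in dact1/2 embryos and 231.2, 223.6 and 250.0 in gpc4 embryos. For its partner mcm2 the values were 298.5, 223.8, 264.0 and 248.2 in wildtype embryos, 207.6, 262.7 and 250.2 in dact1/2 embryos and 218.7, 264.3 and 220.9 in gpc4 embryos. Both helicase genes overlapped between all groups.

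Among mitosis genes, the proliferation marker mki67 was the most abundant, at 840.1, 648.8, 688.1 and 637.9 CPM in wildtype embryos, 574.0, 734.1 and 575.4 in dact1/2 embryos and 560.3, 619.8 and 586.5 in gpc4 embryos. Every gpc4 mutant was below every wildtype embryo, the reverse of their position for pcna. The kinetochore gene cenpf was at 350.1, 320.5, 302.8 and 301.7 CPM in wildtype embryos, 276.8, 353.8 and 281.4 in dact1/2 embryos and 260.6, 299.9 and 271.5 in gpc4 embryos. The spindle assembly gene tpx2 was at 307.4, 195.5, 204.6 and 187.6 CPM in wildtype embryos, 198.1, 228.9 and 208.7 in dact1/2 embryos and 194.6, 205.3 and 217.7 in gpc4 embryos. Dact1/2 replicate 2 was the highest mutant embryo for all 3 of these genes. The least abundant of the mitosis genes, apart from the second ube2c ID, was the checkpoint kinase gene bub1, between 3.6 and 5.8 CPM in all 10 embryos.

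A pair of gene IDs shared the symbol ube2c. ENSDARG00000114670 stood at 210.0, 128.1, 119.0 and 127.5 CPM in wildtype embryos, 132.5, 128.5 and 140.3 in dact1/2 embryos and 143.8, 132.3 and 159.2 in gpc4 embryos. ENSDARG00000101618 lay between 0.3 and 0.9 CPM in every embryo. A table of gene names gives this second ID the symbol DNTTIP1 instead, so it was left out of the counts of IDs that follow. It stayed in the summed mitosis genes, to which it added less than 1 CPM in every whole embryo.

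The other pair of IDs, both named rrm2, differed between embryos in the share of each ID. Rrm2 is the small subunit of ribonucleotide reductase, the enzyme that makes deoxynucleotides for S phase. ENSDARG00000020711 was at 0.3, 84.6, 108.0 and 101.3 CPM in wildtype replicates 1 to 4, at 26.8, 5.4 and 7.2 in dact1/2 embryos, and at 67.2, 0.4 and 153.7 in gpc4 embryos. This ID was nearly silent in 1 wildtype embryo and 1 gpc4 mutant and had the highest level of all in another gpc4 mutant. ENSDARG00000078069 was at 351.6, 160.6, 112.0 and 146.1 CPM in wildtype embryos, at 244.9, 235.6 and 287.1 in dact1/2 embryos, and at 232.3, 274.1 and 153.3 in gpc4 embryos. The 5 embryos lowest in the first ID were the 5 highest in the second. The sum of both IDs was 352.0, 245.2, 220.0 and 247.4 CPM in wildtype embryos, 271.6, 240.9 and 294.3 in dact1/2 embryos and 299.4, 274.5 and 307.0 in gpc4 embryos. Between the highest and the lowest embryo the sum thus varied far less than ENSDARG00000020711 did. Dact1/2 mutants overlapped wildtype replicates 2 to 4 in the sum, and gpc4 mutants lay above them.

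**Figure D2:**
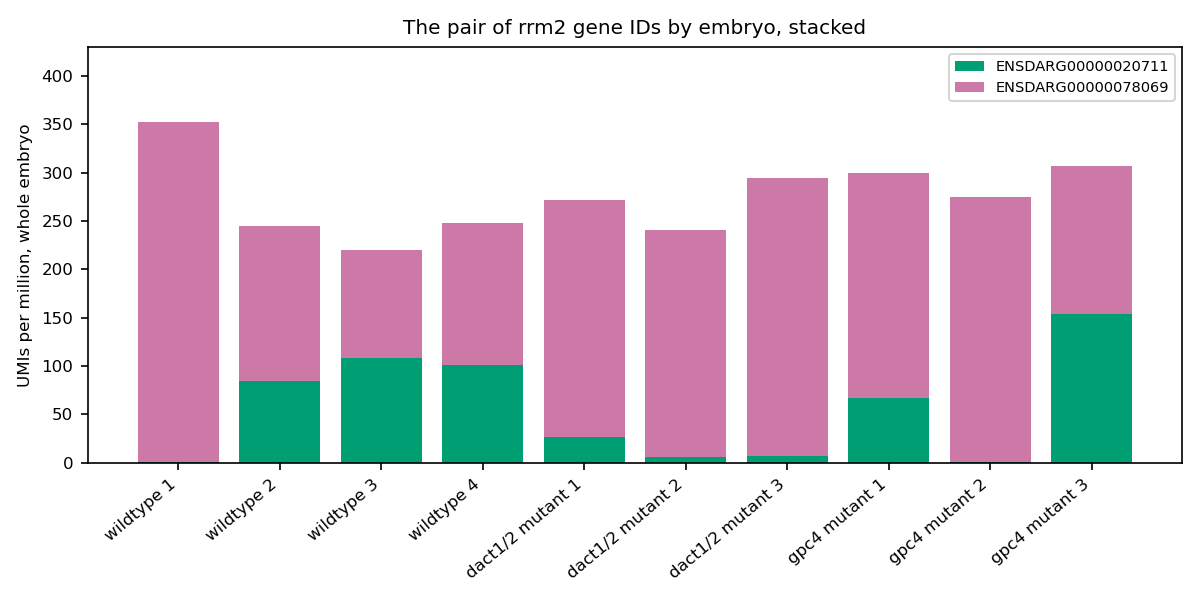
CPM of the pair of gene IDs named rrm2, stacked, with 1 bar per embryo. ENSDARG00000020711 makes up between 0.1% and 50.1% of a bar, while the heights of the bars stay between 220.0 and 352.0.

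The share of rrm2 UMIs on ENSDARG00000020711 was 0.1%, 34.5%, 49.1% and 41.0% in wildtype replicates 1 to 4, 9.9%, 2.2% and 2.4% in dact1/2 embryos, and 22.4%, 0.1% and 50.1% in gpc4 embryos. These shares rest on 5 UMIs of this ID and 5194 of the other in wildtype replicate 1, and on 1563 and 1559 in gpc4 replicate 3. Within an embryo the share varied over cell classes, of which between 15 and 18 had at least 20 rrm2 UMIs. In gpc4 replicate 3 it lay between 38.1% and 60.0% in these classes, and in wildtype replicate 2 between 18.5% and 43.2%. In wildtype replicate 1 it was between 0% and 1.23%. Shares on as few as 20 UMIs vary by sampling alone, and differences between classes were not tested. In wildtype replicate 3, 447 of the 790 cells with a UMI of ENSDARG00000020711 (56.6%) also held 1 of ENSDARG00000078069, which 38.5% of all cells of that embryo held. In wildtype replicate 2 these shares were 81.6% and 57.4%. Cells with more UMIs hold UMIs of either ID more often, and this was not corrected for. IDs with the same symbol can be near-identical copies between which reads are split, so the values of each ID are uncertain and the sum is less so. A RefSeq table of the assembly GRCz12tu lists rrm2 as an older name of both rrm2l and rrm2b and links neither to these IDs, so they were not told apart by name.

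To ask whether the mutants differed from wildtype in cell cycle genes, UMIs were summed per embryo and tested across all genes with edgeR. Its fold changes are scaled between embryos (TMM) and CPM values are not, so small differences can change sign between the scales. A gene counted as called where the adjusted p lay under 0.1 and the log2 fold change exceeded 0.58 in either direction. In whole dact1/2 mutants against wildtype replicates 2 to 4, 2 of 38 IDs were called, the pair named rrm2. Of all genes tested, 2.21% were called. ENSDARG00000020711 fell, with a log2 fold change of -2.78 ± 0.48 (SE, edgeR adjusted p = 0.036), and ENSDARG00000078069 rose by 0.98 ± 0.15 (edgeR adjusted p = 0.020). Dact1/2 mutants did not overlap wildtype replicates 2 to 4 in either ID, but for ENSDARG00000020711 wildtype replicate 1 lay below all of them. With all 4 wildtype embryos, edgeR and DESeq2 each called 0 cell cycle genes, against 0.0415% and 0.927% of all genes, and 2 IDs had an unadjusted p under 0.05 in edgeR, against 8.08% of all genes. The log2 fold changes were then -2.37 ± 1.21 (edgeR adjusted p = 0.682) and 0.50 ± 0.37 (edgeR adjusted p = 0.782).

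Small differences in 1 direction were found over the mitosis genes of whole dact1/2 mutants. Against wildtype replicates 2 to 4, 21 of 22 had a log2 fold change above 0, with a median of 0.19 and a range from -0.18 to 0.41, and 13 had an unadjusted p under 0.05, which 18.3% of all genes had. The median over all genes tested was -0.02. None of these differences reached the fold threshold. In CPM, which lack the scaling of edgeR, the summed mitosis genes overlapped between dact1/2 mutants and wildtype replicates 2 to 4. The p threshold alone was passed by 3 mitosis genes at an edgeR adjusted p under 0.1, the checkpoint genes mad2l1, with a log2 fold change of 0.40, and bub3, with 0.41, and the cyclin gene ccnb1, with 0.36. Mad2l1 was at 184.2, 115.0, 112.1 and 112.0 CPM in wildtype embryos and at 139.2, 132.7 and 144.0 in dact1/2 mutants. Bub3 was at 204.0, 93.0, 96.2 and 101.7 CPM in wildtype embryos and at 120.8, 109.7 and 128.3 in dact1/2 mutants. For both genes the mutants lay above wildtype replicates 2 to 4 and below replicate 1. With all 4 wildtype embryos the median over all 38 IDs went from 0.14 to -0.02. The S-phase genes had a median of 0.06, with 11 of 16 above 0. Among those not called, the largest differences were those of gins2 (log2 fold change 0.54) and mcm7 (-0.62), with edgeR adjusted p-values of 0.123 and 0.273.

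In whole gpc4 mutants, edgeR called 0 of 38 IDs, against 2.41% of all genes, and 15 had an unadjusted p under 0.05, against 16.8%. DESeq2 called 1, rrm2 ENSDARG00000078069 (log2 fold change 0.71, DESeq2 adjusted p = 0.0046), while it called 3.29% of all genes. For that ID edgeR gave 0.71 ± 0.19 (edgeR adjusted p = 0.129), and for ENSDARG00000020711 it gave -0.33 ± 1.03 (edgeR adjusted p = 0.905). The p threshold alone was passed by 2 IDs. Gins2, the helicase subunit gene, was at 29.4, 25.7, 32.3 and 24.3 CPM in wildtype embryos and at 37.6, 38.1 and 35.5 in gpc4 mutants (log2 fold change 0.49, edgeR adjusted p = 0.087). Mad2l1 was at 139.9, 131.1 and 135.9 CPM in these mutants (log2 fold change 0.32, edgeR adjusted p = 0.085). Gpc4 mutants exceeded every wildtype embryo in gins2, while in mad2l1 wildtype replicate 1 lay above them. Mitosis genes had a median log2 fold change of 0.16, with 16 of 22 above 0, and S-phase genes of 0.12, with 11 of 16 above 0. The median over all genes was -0.01. With all 4 wildtype embryos, edgeR and DESeq2 each called 0 cell cycle genes, against 0.119% and 1.32% of all genes, and 2 IDs had an unadjusted p under 0.05 in edgeR, against 8.64% of all genes. Both comparisons use the same wildtype embryos, so their results are not independent of each other.

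Within lineages the same pair of IDs was called in dact1/2 mutants. The neural, neural crest and elavl3-expressing neural cells were summed as ectoderm, the adaxial, presomitic and somite cells as paraxial mesoderm, and the blood, vessel, heart, kidney and cephalic cells as lateral plate mesoderm. In ectoderm 2 of 38 IDs were called, against 1.83% of all genes. ENSDARG00000020711 changed by -2.83 ± 0.38 on the log2 scale (SE, edgeR adjusted p = 0.0030) and ENSDARG00000078069 by 0.91 ± 0.15 (edgeR adjusted p = 0.010). In lateral plate mesoderm 2 were called, against 1.92% of all genes, with -2.99 ± 0.33 (edgeR adjusted p = 0.00034) and 1.03 ± 0.15 (edgeR adjusted p = 0.0037). In paraxial mesoderm 1 was called, against 1.01% of all genes. There ENSDARG00000020711 changed by -2.88 ± 0.32 (edgeR adjusted p = 0.0028) and ENSDARG00000078069 by 0.74 ± 0.18 (edgeR adjusted p = 0.103). The log2 fold changes of each ID were thus alike in the 3 lineages, whose differences were not tested. Summed over both IDs, dact1/2 mutants overlapped wildtype replicates 2 to 4 in all 3 lineages. Against these wildtype embryos, 19, 15 and 21 of 22 mitosis genes had a log2 fold change above 0 in ectoderm, paraxial and lateral plate mesoderm. Their medians were 0.17, 0.05 and 0.13, against -0.005, -0.003 and -0.013 over all genes. The median was thus smallest in paraxial mesoderm, but differences between lineages were not tested. Like the shift of the whole embryo, these medians were taken without wildtype replicate 1. With all 4 wildtype embryos, edgeR and DESeq2 each called 0 cell cycle genes in ectoderm, paraxial and lateral plate mesoderm, against 0.104%, 0.0214% and 0.041% of all genes called by edgeR and 0.484%, 0.622% and 0.205% by DESeq2. The IDs at an unadjusted p under 0.05 in edgeR were then 2, 3 and 1 of 38, against 6.99%, 8.79% and 5.78% of all genes.

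In gpc4 mutants, edgeR called 0 cell cycle genes in ectoderm, paraxial and lateral plate mesoderm. Of all genes, 2.29%, 1.81% and 1.79% were called. At an unadjusted p under 0.05 there were 7, 6 and 7 of the 38 IDs, near the 14.7%, 12.6% and 13.2% of all genes. DESeq2 called 0, 1 and 0 of them, against 1.43%, 1.72% and 1.13% of all genes. In paraxial mesoderm mki67 passed the p threshold only, with a log2 fold change of -0.37 (edgeR adjusted p = 0.090). With all 4 wildtype embryos, edgeR and DESeq2 again called 0 in each lineage, against 0.113%, 0.0871% and 0.102% of all genes in edgeR and 0.444%, 0.882% and 0.368% in DESeq2. At an unadjusted p under 0.05 in edgeR were 2, 4 and 0 IDs, against 7.83%, 9.25% and 7.03% of all genes.

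The mutants were then compared with each other. By edgeR, 0 of 38 IDs were called in whole embryos, ectoderm, paraxial and lateral plate mesoderm, against 2.04%, 1.59%, 0.878% and 1.85% of all genes. DESeq2 called 0 in each, against 3.05%, 1.34%, 0.823% and 1.21% of all genes. In the same order 0, 1, 3 and 2 IDs had an unadjusted p under 0.05 in edgeR, while between 9.15% and 14.7% of all genes had one. For rrm2 ENSDARG00000020711 in whole embryos the log2 fold change of dact1/2 against gpc4 mutants was -2.45 ± 1.22 (edgeR adjusted p = 0.396), with gpc4 replicate 2 below all dact1/2 mutants and the other two gpc4 mutants above them. Same-numbered mutant embryos deviated together over all genes. With the replicate number as a block, edgeR called 0, 0, 1 and 1 IDs, against 3.56%, 2.57%, 2.47% and 2.88% of all genes. The ID called was again ENSDARG00000020711, at -2.30 ± 0.55 in paraxial mesoderm (edgeR adjusted p = 0.041) and -2.28 ± 0.54 in lateral plate mesoderm (edgeR adjusted p = 0.048).

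Levels were next compared between cell classes. The classes were clusters named from marker genes, and all 37 symbols and the other listed cell cycle genes were left out of the genes used for clustering. Of the classes, 17 had at least 10 cells in every wildtype embryo, 15 of them with a name. The clusters numbered 5 and 13 stayed unnamed. A class whose markers were those of the neural plate and spinal cord was led by genes of differentiating neurons, among them elavl3, myt1a and neurod4, and is called here by elavl3 and myt1a. S-phase RNA was highest in neural cells, with 3513 ± 268 CPM (SD, n = 4 wildtype embryos), and next in the tail bud, with 3053 ± 102. In neural cells it was the highest of all classes in each of the 10 embryos. The periderm and the neural crest followed, with 2654 ± 453 and 2564 ± 354 CPM. Then came the cephalic mesoderm (2266 ± 538), cluster 13 (2189 ± 256), hematopoietic cells (2171 ± 42), the heart field (2122 ± 514), the cells led by elavl3 and myt1a (2111 ± 475), the epidermis (2017 ± 508) and cluster 5 (1972 ± 272). Below them lay the presomitic mesoderm (1821 ± 364), the somites (1632 ± 177), the notochord (1626 ± 434) and the vasculogenic and myeloid cells (1349 ± 696). At the bottom were the adaxial cells, with 1052 ± 405 CPM, and the hatching gland, with 303 ± 34, which was the lowest class in all 10 embryos. Neighbours in this order differed by more than the larger of their SDs at the top, between neural cells and the tail bud, and at the bottom, between adaxial cells and the hatching gland, and nowhere else.

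Mitosis RNA followed another order. It was highest in the presomitic mesoderm, with 4311 ± 379 CPM (SD, n = 4), ahead of the cephalic mesoderm (3646 ± 584), neural cells (3569 ± 458) and the tail bud (3563 ± 372). The presomitic mesoderm was the highest class in 7 of 10 embryos, and its lead over the next class was the only gap between neighbours larger than the SD. From the heart field (3363 ± 1010) down to cluster 5 (2249 ± 1136), neighbouring classes were not separated. The notochord (1737 ± 493), the hatching gland (1225 ± 838) and the adaxial cells (971 ± 475) closed the order, and the lowest class was the hatching gland in 7 embryos and the adaxial cells in 3. The large SD of the hatching gland came from wildtype replicate 1, with 2474 CPM against 881, 678 and 867 in the other wildtype embryos. Without this embryo, a setting added after seeing the data, the gland lay below the adaxial cells, with means of 809 and 1128 CPM. In adaxial cells the same embryo was the lowest of the wildtype embryos for both sums, at 641 CPM for S phase and 502 for mitosis.

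**Figure D3:**
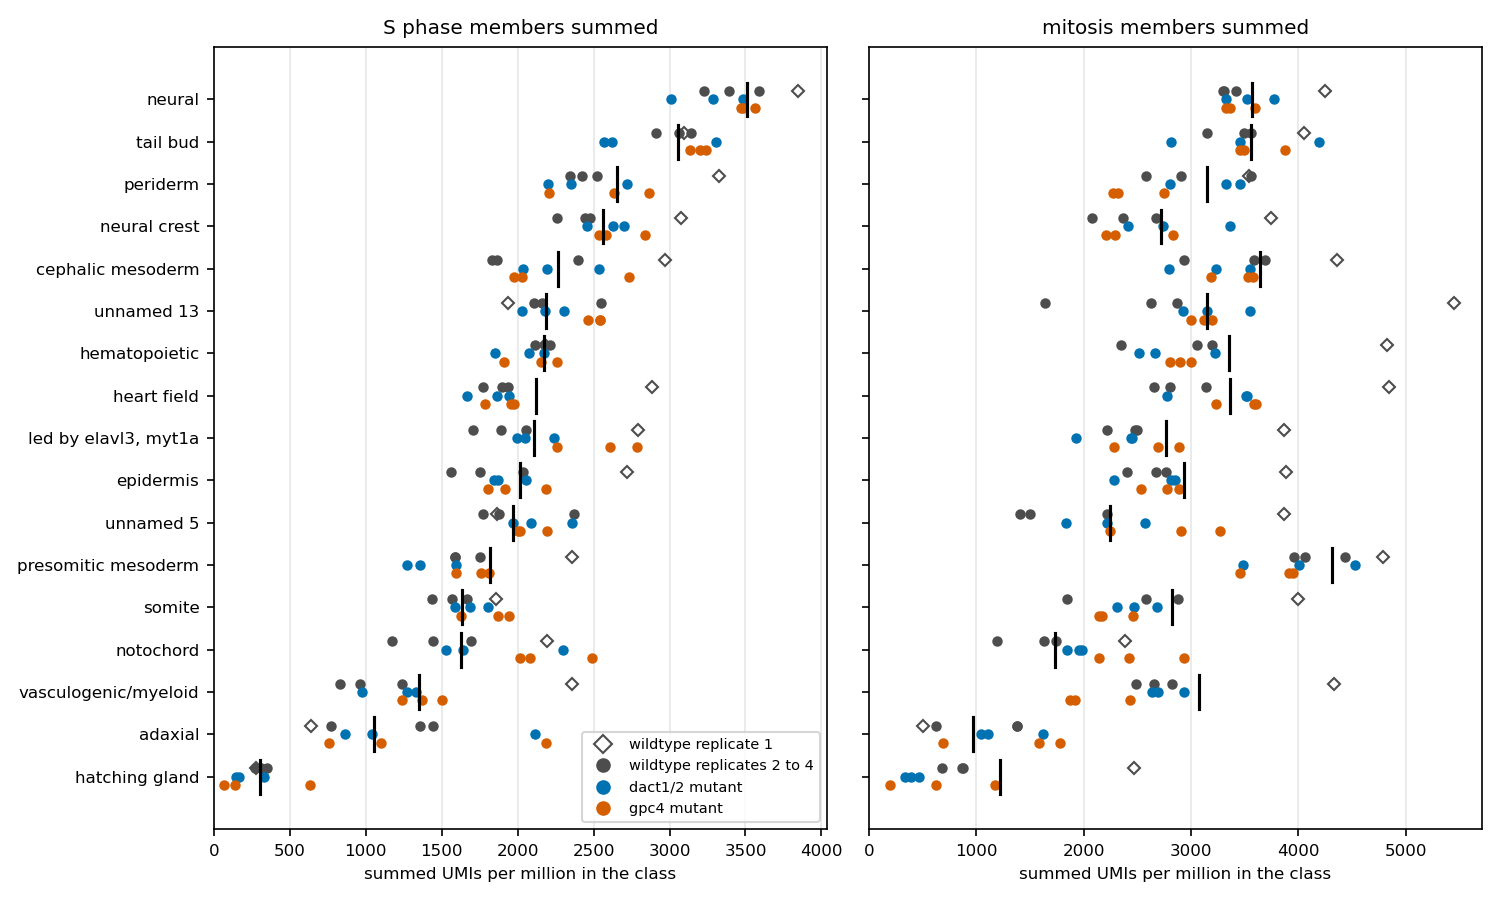
Summed CPM of the S-phase genes (left) and the mitosis genes (right) in each cell class, with 1 point per embryo, colored by genotype, and a black bar of fixed length at the wildtype mean. Neural cells are highest for S phase, the presomitic mesoderm is highest for mitosis, and the hatching gland and adaxial cells are at the low end of both.

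The balance between the phases differed between classes. The ratio of mitosis to S-phase RNA in wildtype means was 0.92 in adaxial cells, 1.02 in neural cells, 1.06 in the neural crest and 1.07 in the notochord. It was 2.28 in vasculogenic and myeloid cells, 2.37 in the presomitic mesoderm and 4.05 in the hatching gland. Without wildtype replicate 1 it was 2.61 in the gland, no longer above the 2.63 of vasculogenic and myeloid cells. The presomitic mesoderm was 12th of 17 classes in S phase and 1st in mitosis. Across the 17 classes the sums had a Pearson correlation of 0.67 and a Spearman correlation of 0.61, over class means that share libraries. Across single cells thinned to 3000 UMIs, the S-phase and mitosis counts had a Pearson correlation of -0.12 and a Spearman correlation of -0.02 over 14690 cells.

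Single genes mostly followed the sum of their phase. Of the 16 S-phase IDs, 11 were highest in neural cells and 4 in the tail bud, and 15 were lowest in the hatching gland. Pcna was at 1028 ± 89 CPM in neural cells and 67.3 ± 8.7 in the hatching gland (SD, n = 4), and the reductase gene rrm1 at 224 ± 8.6 and 10.9 ± 6.3. The exception was the cyclin E gene ccne1, highest in cluster 5 and lowest in hematopoietic cells, at 37.2 ± 7.7 and 10.0 ± 6.7 CPM. Of the 22 mitosis IDs that passed the filter, 13 were highest in the presomitic mesoderm and 4 in the cephalic mesoderm. Adaxial cells were the lowest class for 14 and the hatching gland for 7, while bub1 was at 0 in both adaxial cells and notochord. Without wildtype replicate 1 the lowest class turned, with 5 lowest in adaxial cells and 16 in the gland. Mki67 was at 996 ± 55 CPM in the presomitic mesoderm and 213 ± 139 in adaxial cells, and cenpe, the gene of a kinetochore motor, at 187 ± 18 and 26.9 ± 28.1. Ccnb1 was the only mitosis gene with its maximum in neural cells, at 153 ± 43 CPM, and ccna2 and bub3 had theirs in the tail bud, as did tyms, ccne2, cdc45 and cdc6 of S phase.

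**Figure D4:**
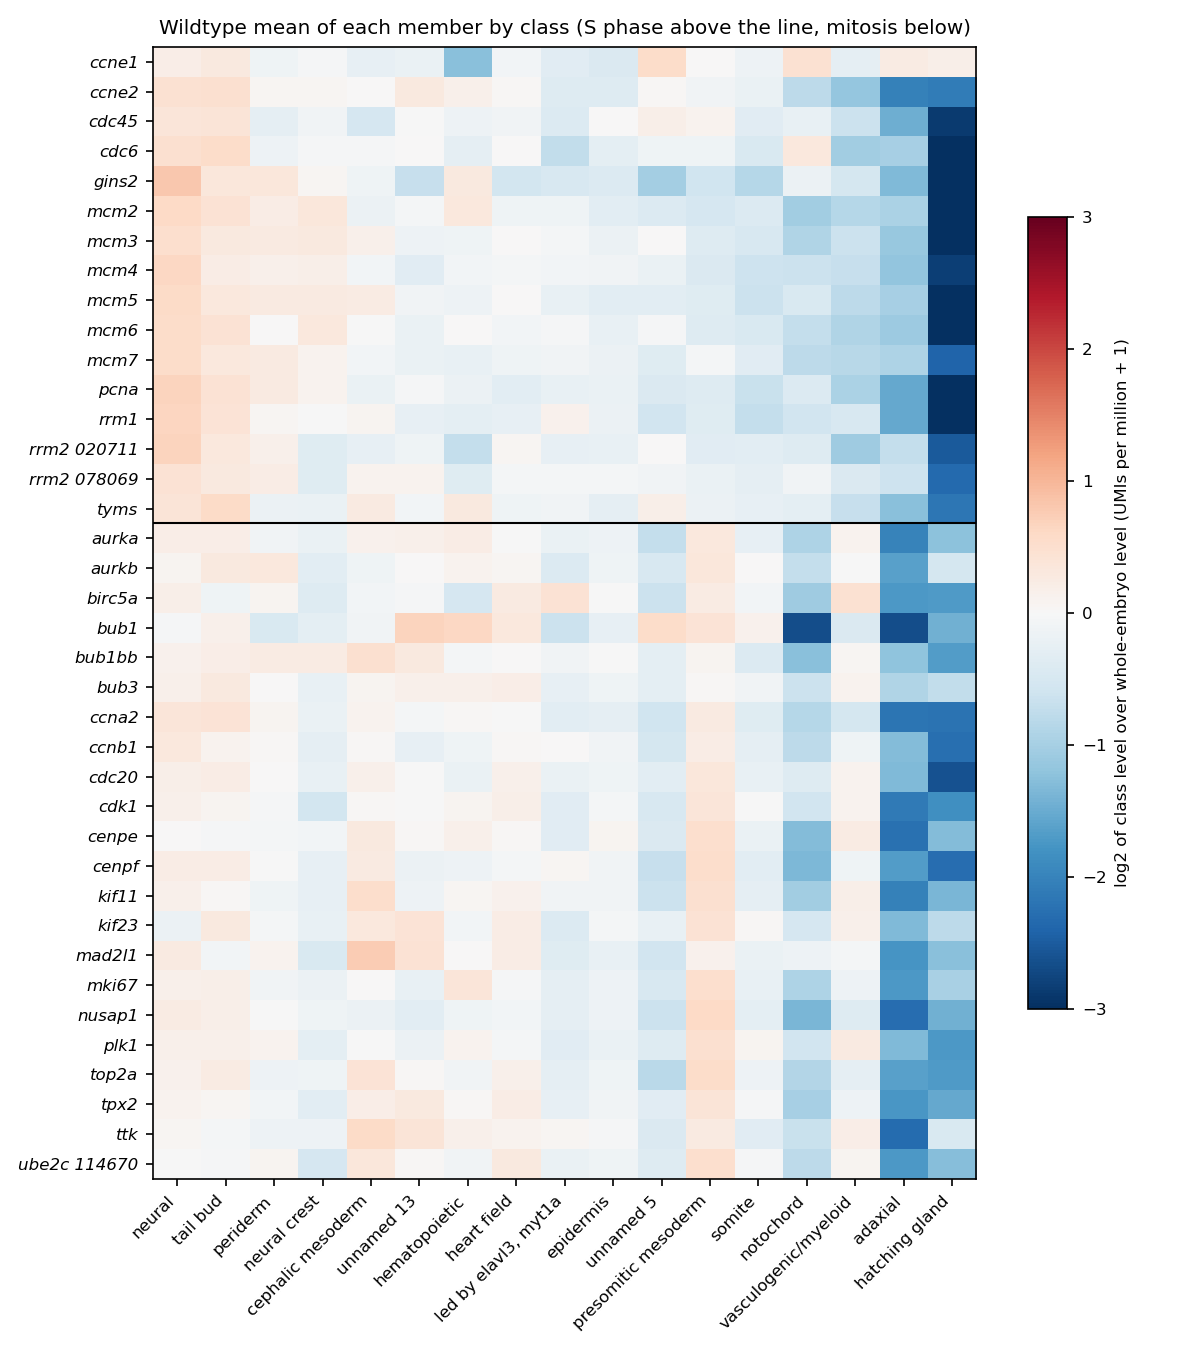
Level of each gene ID that passed the filter (rows, S phase above the line and mitosis below) in each cell class (columns) as the log2 ratio of the wildtype mean in the class to that of the whole embryo, with 1 CPM added to both and colors limited to the range from -3 to 3. The hatching gland column is the lowest for nearly all S-phase genes, and the presomitic mesoderm column is the highest for 13 of the 22 mitosis IDs.

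The classes known to leave the cell cycle early were tested against the rest of the same embryo, with the embryo as a block and all 10 embryos in the fit. The hatching gland held 219 cells, between 5 and 60 in an embryo. Among its leading genes were the hatching enzyme genes he1.1 and he1.2 and the gland marker ctslb. Of 38 IDs, 37 were lower there, while 43.2% of all genes were called lower. The median log2 fold change was -2.26 over the cell cycle genes, -2.87 in S phase and -1.95 in mitosis, and -0.46 over all genes. A class rich in a few RNAs has lower shares of all others, so the differences are to be read against this median. With the size factors of DESeq2 both medians moved, to -2.54 and -0.75, and 37 IDs were still called lower, against 51.4% of all genes. Ccne1 alone was not called, at a log2 fold change of 0.37.

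Among S-phase genes of the hatching gland, the origin-loading gene cdc6 changed the most. It was between 0 and 4.1 CPM in the hatching gland of the 10 embryos (median 1.0) and between 31.4 and 62.8 in the rest (median 35.2), with a log2 fold change of -3.78 ± 0.41 (SE, edgeR adjusted p = 3.2e-14) on 6 UMIs in the class. For rrm1 the levels were between 0 and 26.2 CPM (median 8.0) against between 117.9 and 160.1 (median 140.6), and the log2 fold change was -3.49 ± 0.25 (edgeR adjusted p = 2.9e-23). Neither gene overlapped between the gland and the rest. Pcna was between 8.4 and 172.8 CPM in the gland (median 55.5) and between 583.0 and 769.2 in the rest (median 674.5), a log2 fold change of -3.32 ± 0.19 (edgeR adjusted p = 5.0e-30). The helicase genes mcm2 and mcm6 followed with -3.31 ± 0.21 (edgeR adjusted p = 8.8e-27) and -3.17 ± 0.22 (edgeR adjusted p = 4.7e-24). In all, 15 of 16 S-phase IDs and 19 of 22 mitosis IDs were lower in the gland in each of the 10 embryos, as were 35.6% of all genes tested. The smallest differences among mitosis genes were those of the kinase genes aurkb (-0.86) and ttk (-0.95) and of bub3 (-1.09).

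The size of the difference in the gland depended on how the gland was delimited. A second cluster of 331 cells, with hatching enzyme genes among its leading genes, a lower median of 3275 UMIs per cell and 50.2% of its cells from gpc4 replicate 2, had been left unnamed. When it was added to the gland, 34 IDs were lower, against 27.2% of all genes, and the median was -1.04, against -0.23 over all genes. When the cell cycle genes were kept in the clustering, 35 were lower and 1 higher, against 37.7% of all genes lower, with a median of -1.57 against -0.33. Without wildtype replicate 1, 37 IDs were lower, against 53.8% of all genes, and the median was -2.79, against -0.83 over all genes.

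Adaxial cells numbered 328, between 11 and 60 in an embryo, and were led by the slow muscle gene smyhc1 and other muscle genes. Of 38 IDs, 34 were lower there than in the rest, against 28.6% of all genes called lower. The median log2 fold change was -1.13, with -0.98 in S phase and -1.29 in mitosis, and -0.33 over all genes. Unlike the gland, these cells had their largest differences in mitosis genes. Mki67 was between 62.8 and 368.6 CPM in adaxial cells (median 205.1) and between 576.9 and 847.7 in the rest (median 633.5), without overlap, a log2 fold change of -1.63 ± 0.14 (SE, edgeR adjusted p = 1.7e-11). The spindle gene nusap1 had a median of 51.4 CPM against 173.6, again without overlap, a log2 fold change of -1.62 ± 0.19 (edgeR adjusted p = 2.1e-08). Cenpf followed with -1.59 ± 0.17 (edgeR adjusted p = 1.6e-09), the spindle motor gene kif11 with -1.58 ± 0.18 (edgeR adjusted p = 1.1e-08) and ttk with -1.56 ± 0.25 (edgeR adjusted p = 3.6e-06). In 19 of 22 mitosis IDs and 8 of 16 S-phase IDs the class was lower in all 10 embryos, as it was for 15.2% of all genes tested. The IDs not called were bub1, ccne1 and both of rrm2. Levels in adaxial cells were partly as low as in the hatching gland, where the median of mki67 was 205.3 CPM. In 2 of 22 mitosis IDs and 1 of 16 S-phase IDs the adaxial median over 10 embryos was at or below that of the gland. The part of free RNA in adaxial levels was not tested.

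The notochord, with 427 cells and between 30 and 70 in an embryo, differed less. Of 38 IDs, 17 were lower, against 16.9% of all genes called lower, and the median log2 fold change was -0.52 against -0.12 over all genes. Mitosis genes made up 15 of the 17, and the S-phase genes called were the helicase genes mcm2 (-0.62) and mcm7 (-0.61). Cenpf was between 53.3 and 321.5 CPM in the notochord (median 157.8) and between 261.9 and 359.4 in the rest (median 303.9), a log2 fold change of -0.99 ± 0.14 (SE, edgeR adjusted p = 3.7e-06). Nusap1 changed by -0.90 ± 0.12 (edgeR adjusted p = 1.5e-06), cenpe by -0.87 ± 0.14 (edgeR adjusted p = 2.3e-05) and bub1bb by -0.86 ± 0.18 (edgeR adjusted p = 0.00036). The largest log2 fold change, -1.73 ± 0.58 for bub1 (edgeR adjusted p = 0.017), rests on 6 UMIs in the notochord. Levels in the notochord and the rest overlapped for all IDs tested but tpx2, while 8.99% of all genes did not overlap. The count of IDs called depended on the cells and embryos: 27 in wildtype embryos alone, 26 without the top 5% of cells by UMIs, and 10 without wildtype replicate 4, against 16%, 20.2% and 15.5% of all genes. In wildtype embryos alone the median was -0.84, against -0.16 over all genes. Summed mitosis RNA of the notochord was at 2385, 1629, 1743 and 1190 CPM in wildtype replicates 1 to 4 and between 1842 and 1985 in dact1/2 mutants. It lay between 2144 and 2932 in gpc4 mutants. Summed S-phase RNA was at 2193, 1693, 1446 and 1172 CPM in wildtype replicates 1 to 4, while dact1/2 embryos spanned 1530.5 to 2301 and gpc4 embryos 2013 to 2488. For both sums gpc4 embryos lay above wildtype replicates 2 to 4 and overlapped replicate 1, and no difference between genotypes was tested in this class. The levels also depended on how the class was delimited. At a finer clustering resolution of 0.8 the notochord class held 322 cells, with wildtype means of 1264 CPM for mitosis and 1562 for S phase. A separate unnamed cluster of 105 cells had 3297 and 2112. It was led by aplnr2, chl1a, hapln1a and oc90, with col8a1a, col9a1b, col9a2 and ntn1b also among its leading genes. The cell type of this cluster was not determined. In the class of 427 cells the means were 1737 and 1626.

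**Figure D5:**
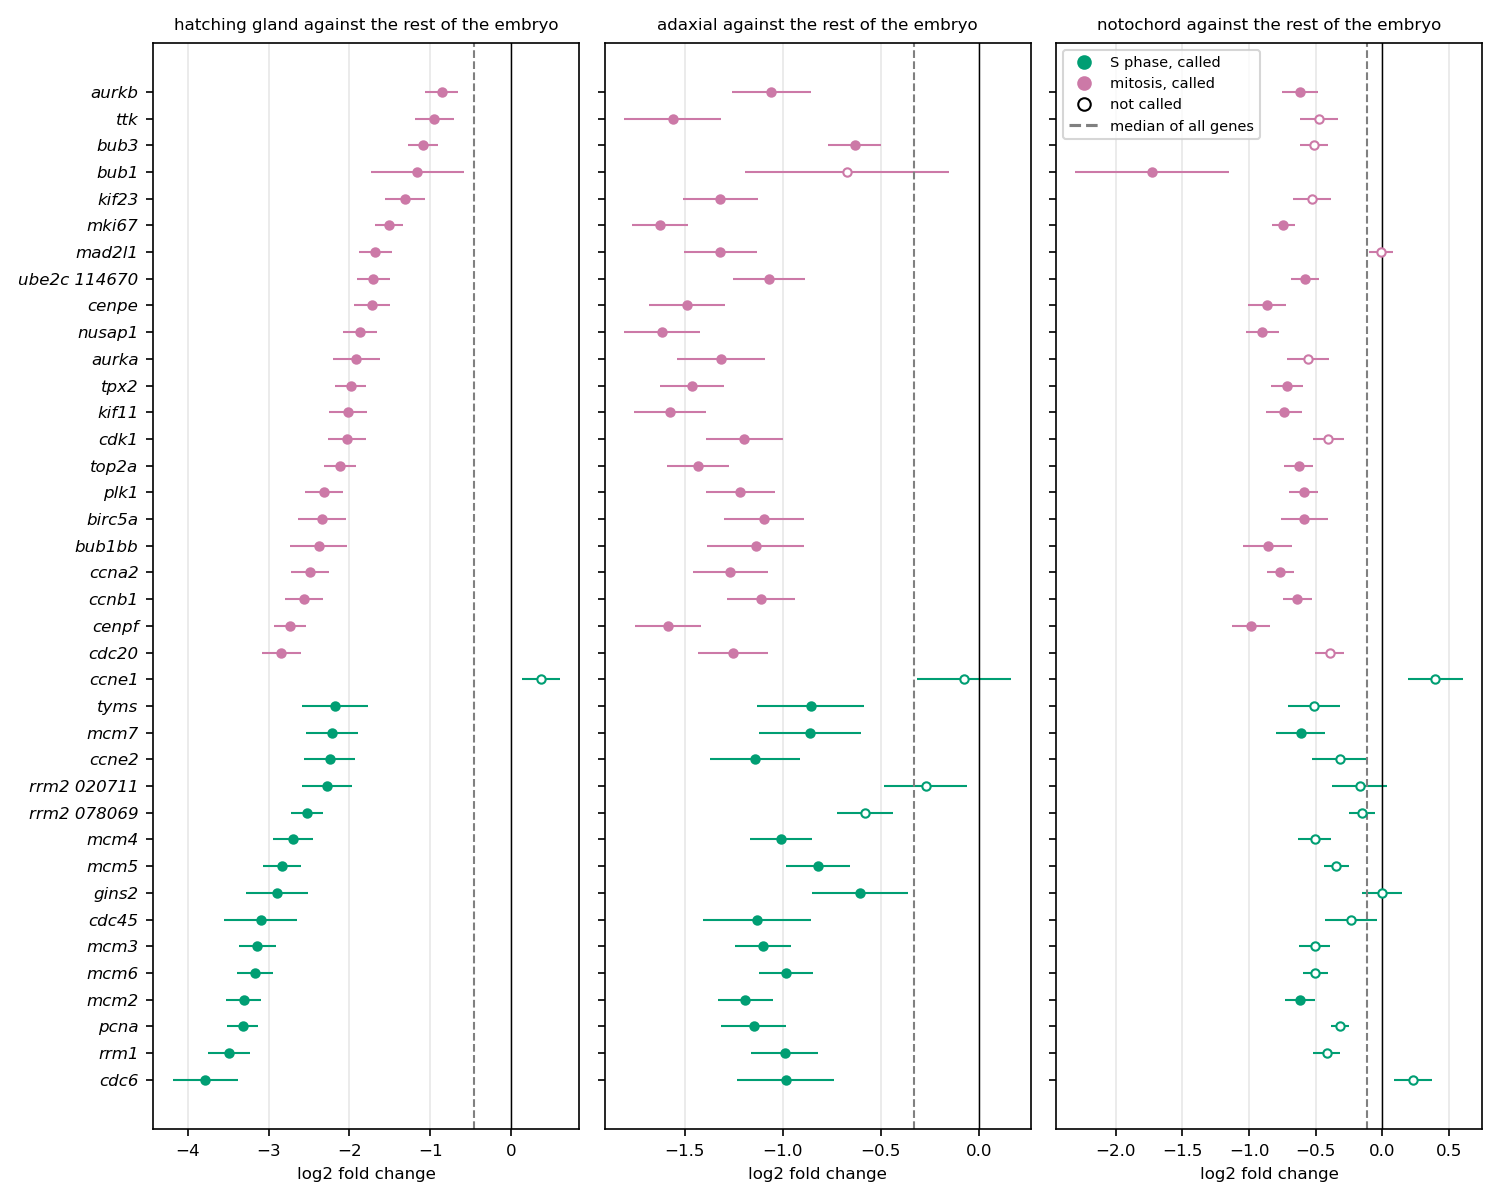
Log2 fold change and SE of each gene ID in the hatching gland, adaxial cells and notochord against the rest of the same embryo (edgeR, 10 embryos), with S-phase and mitosis genes in different colors, filled points for called IDs and a dashed line at the median of all genes tested. The horizontal axes differ in range, and the points lie farthest to the left of the dashed line in the hatching gland.

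The hatching gland and adaxial cells also stood out cell by cell at equal depth, while the notochord did not in S phase. After each cell was thinned to 3000 UMIs, 14690 cells remained. Neural cells held a median of 10 S-phase and 9 mitosis UMIs, and 0.1% of them had no S-phase UMI and 1.8% no mitosis UMI. Cells of the presomitic mesoderm held 4 and 9, and the notochord 4 and 3. In the hatching gland the medians were 0 and 1, with 68.0% of 219 cells without any S-phase UMI and 37.9% without any mitosis UMI. In adaxial cells they were 1 and 1, with 35.0% and 32.9% of 280 cells. The cells of the hatching gland all reached 3000 UMIs and had a median of 11413. What remained in the gland differed by gene. Without thinning, the median over embryos was 55.5 CPM for pcna, against 674.5 in the rest. For bub3 it was 45.7 against 116.0, and for ccne1 20.7 against 21.0. The part of free RNA in these levels was not tested. Thinning left out 48 of 328 adaxial, 117 of 427 notochord and 420 of 3180 neural cells.

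Genes of the same processes outside the list were mostly lower in the hatching gland and adaxial cells. Of 62 other replication genes, 0 were called by edgeR in either mutant against wildtype replicates 2 to 4 in whole embryos, and likewise 0 of 83 other mitosis genes. Over all genes 2.21% and 2.41% were called, which for lists of this size comes to few genes. In the hatching gland, where 43.2% of all genes were lower, 56 of 62 other replication genes were lower. Among them were the ligase gene lig1 (log2 fold change -3.06 ± 0.20, SE) and slbp (-3.24 ± 0.23). The exception that rose was wee1, which encodes an inhibitor of Cdk1, with 2.31 ± 0.15. Of 83 other mitosis genes 72 were lower there, including the spindle pole gene aspm (-2.51 ± 0.22), while fzr1a, which encodes an activator of cyclin destruction, rose by 1.65 ± 0.15. In adaxial cells 58 of 62 and 75 of 83 were lower, against 28.6% of all genes, with the condensin genes smc2 (-1.59 ± 0.16) and ncapg (-1.52 ± 0.17). In the notochord 4 of 62 and 24 of 83 were lower, against 16.9% of all genes. The median log2 fold changes there were -0.34 for both lists and -0.12 over all genes.

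Genes of cell cycle exit differed in which member rose. In the hatching gland 6 of 20 tested were higher and 7 lower, against 21.7% and 43.2% of all genes. The growth arrest gene gadd45ga rose by 3.96 ± 0.20 on the log2 scale and the kinase inhibitor gene cdkn1ba by 3.46 ± 0.23, while another kinase inhibitor gene, cdkn1ca, changed by -2.52 ± 0.24. In adaxial cells 8 of 20 were higher and 3 lower, against 13.4% and 28.6% of all genes, and there cdkn1ca rose by 2.25 ± 0.11, with tob1b, of an antiproliferative family, at 2.08 ± 0.14. In the notochord 3 of 20 were higher and 3 lower, against 16.6% and 16.9% of all genes, and tob1b rose by 3.68 ± 0.18. These lists were also left out of the clustering.

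By the Spearman correlation of wildtype levels over the 17 named classes, small ones included, the genes most like pcna were pola1 (0.98), mcm5 (0.96), mcm3 (0.96), mcm4 (0.96) and mcm6 (0.95). For ccnb1 they were kmt5ab (0.94), seh1l (0.90), aspm (0.90), msl2a (0.89) and si:ch211-156j22.4 (0.89). Without germ cells, of which there were 43 with 240 CPM of ccnb1 when pooled, the genes most like ccnb1 became cdc20 (0.96), bub1ba (0.96), aspm (0.95), cenpf (0.95) and kmt5ab (0.94). For rrm2 ENSDARG00000020711 the nearest gene over all classes was tox2 (0.89), and without germ cells it was ENSDARG00000041723 (0.95), followed by rgra (0.95), with tox2 the fifth (0.88). For rrm2 ENSDARG00000078069 it was zgc:110796 (0.91) over all classes and wdr76 (0.90) without germ cells. These are descriptions over class means from the same embryos.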

How the data were processed

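The authors deposited, for each embryo, raw UMI counts per gene and barcode, which the submitters' processing notes credit to Cell Ranger 6.1.0 and GRCz11. Cells with 1500 or more UMIs, 750 or more genes, under 5% mitochondrial UMIs and a log10 gene to log10 UMI ratio over 80% were kept, then genes seen in 1 of 3000 cells, which left 19998. This kept fewer cells than the study states. Cells were normalized with sctransform 0.4.2 and clustered (Louvain, igraph 2.1.4, resolution 0.3) on 40 components of 3000 variable genes, from which 218 cell cycle symbols were excluded, with embryo means subtracted in place of the authors' Harmony. Clusters were named from marker lists. No doublet caller was run and none were removed, and leaving out the top 5% of cells by UMIs was an alternative.

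UMI counts summed per embryo and group of cells were tested with the quasi-likelihood test of edgeR 4.0.16 in R 4.3.3 (TMM, filterByExpr, Benjamini-Hochberg over all genes), with DESeq2 1.42.0 and apeglm 1.24.0 as alternatives. Labels do not say that replicate numbers pair embryos. Same-numbered dact1/2 and gpc4 mutants had correlated deviations (0.231, 0.286 and 0.143). For this pair of groups a fit with the replicate number as a block is therefore given beside the main fit, which was unpaired. The pairing rests on the data alone. P-values between genotypes measure the spread between embryos. In the class tests, with the embryo as a block, they measure how the difference between class and rest varied between embryos. The genes and lists were chosen with earlier results of these data known. Given in full are genes called between genotypes, symbols with more than 1 ID, the 3 most abundant genes of each phase, and the 5 called genes of largest change in each class.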

Additional observations from a re-analysis of the deposited data

Results flagged for a closer look

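Of 38 values examined in groups of 4 wildtype embryos, 7 lay farther from the other 3 than Dixon's 95% limit allows, and chance alone marks about 1 in 20 groups. All were high values of wildtype replicate 1. In whole embryos they were ube2c ENSDARG00000114670 at 210.0 CPM, tpx2 at 307.4 CPM and the summed mitosis genes at 4153 CPM. By tissue they were the summed mitosis genes in ectoderm (4149 CPM), in neural cells (4251 CPM) and in the hatching gland (2474 CPM), and both rrm2 IDs together in lateral plate mesoderm (387.7 CPM). Over the 38 IDs that passed the filter 19 went past the limit in whole embryos, and wildtype replicate 1 was the embryo apart in each of them. Of the 12550 genes with at least 200 UMIs, 13.5% passed it, and in 89.9% of these the same embryo was apart. Sequencing depth, mitochondrial share and the thinned values of this embryo are given with the results, and no cause was tested.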

How the results depend on the processing

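With all 4 wildtype embryos the cell cycle genes called in dact1/2 mutants went from 2, 2, 1 and 2 (whole embryo, ectoderm, paraxial and lateral plate mesoderm) to 0 in each, by edgeR and, in an alternative chosen after seeing the data, by DESeq2. DESeq2 with apeglm called 1, 1, 2 and 1, and 1 in whole gpc4 mutants. DESeq2 without shrinkage called 2 in paraxial mesoderm of dact1/2 mutants and 1 in whole gpc4 mutants and in their paraxial mesoderm, and its size factors in edgeR gave 2 in paraxial mesoderm of dact1/2 mutants. Without the filter on low counts 3 were called there, and 1 in each lineage of gpc4 mutants against wildtype and of dact1/2 against gpc4 mutants. The replicate block gave 1 in ectoderm and 2 in paraxial mesoderm of dact1/2 mutants, 1 in whole gpc4 mutants, their ectoderm and their lateral plate mesoderm, and 1 in paraxial and lateral plate mesoderm between mutants. It changed no other count beyond 1.5 times. Against wildtype replicates 2 to 4, only the numbers 2 and 3 occurred in both groups, so those blocked counts rest on these embryos alone. Correlations of wildtype embryos with same-numbered mutants lay between -0.168 and 0.084. They took in wildtype replicates 1 to 3 only, and other pairings of wildtype with mutant embryos were not tried.

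Leaving out 1 embryo gave 1 to 3 in whole dact1/2 mutants (1 without dact1/2 replicate 3), 1 to 2 in their paraxial mesoderm and 2 to 3 in their ectoderm and lateral plate mesoderm. It gave 0 to 1 in all gpc4 comparisons (1 without gpc4 replicate 3 against wildtype, also without wildtype replicate 3 in whole embryos, and 1 without gpc4 replicate 2 between mutants), 32 to 35 in adaxial cells, 36 to 37 in the hatching gland and 10 to 20 in the notochord (10 without wildtype replicate 4). The notochord count was 27 in wildtype embryos alone and 26 without the top 5% of cells. No sign of a called value turned. The summed S-phase level moved by more than its SD in the hatching gland (442.4 CPM with cell cycle genes in the clustering). It also did so in hematopoietic cells (2237 CPM when thinned, 1998 with those genes). Among the class sums of both phases, 115 other values moved by less, those without wildtype replicate 1 included. For the latter this was fixed in advance, since leaving out 1 of 4 embryos cannot move a mean by the SD of the 4. Without that embryo the mitosis sum of the hatching gland went from 1225 to 809 CPM. The S-phase sum of vasculogenic and myeloid cells went from 1349 to 1011 CPM. Low counts limit the hatching gland (5 to 60 cells an embryo) and bub1.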

Other observations

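Germ cells, with 43 cells in 9 of the embryos, were not ranked among the classes. Pooled over embryos, they held 1057 CPM of S-phase and 4806 CPM of mitosis genes. After thinning to 3000 UMIs, their median cell had 2 S-phase and 11 mitosis UMIs, and none of 37 cells lacked a mitosis UMI. Pronephros cells, as few as 2 in 1 embryo, held 1258 and 3500 CPM when pooled.

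Among genes that p53 is known to switch on, the cyclin G gene ccng1 was higher in gpc4 mutants than in wildtype replicates 2 to 4 in whole embryos (log2 fold change 0.65 ± 0.08, SE, edgeR adjusted p = 0.013) and in each lineage tested. Its log2 fold changes were 0.75 ± 0.08 in ectoderm (edgeR adjusted p = 0.0012), 0.79 ± 0.15 in paraxial mesoderm (edgeR adjusted p = 0.044) and 0.59 ± 0.14 in lateral plate mesoderm (edgeR adjusted p = 0.072). In ectoderm it was also lower in dact1/2 than in gpc4 mutants (-0.63 ± 0.11, edgeR adjusted p = 0.018). Of 16 genes of this list tested in whole embryos, 3 were higher in gpc4 mutants (ccng1, rps27l and sesn2) and 1 was lower in dact1/2 mutants (sesn1, -0.64 ± 0.09, edgeR adjusted p = 0.017), while 2.41% and 2.21% of all genes were called. In ectoderm of dact1/2 mutants sesn1 was lower than in wildtype (-0.73 ± 0.15, edgeR adjusted p = 0.040) and than in gpc4 mutants (-0.70 ± 0.16, edgeR adjusted p = 0.070). In paraxial mesoderm rps27l was higher in dact1/2 mutants (0.62 ± 0.14, edgeR adjusted p = 0.067) and in gpc4 mutants (0.95 ± 0.23, edgeR adjusted p = 0.086). In ectoderm the antiproliferative gene tob1a was higher in dact1/2 mutants (1.13 ± 0.23, edgeR adjusted p = 0.038) and in gpc4 mutants (1.21 ± 0.25, edgeR adjusted p = 0.042), which share the wildtype embryos. It was called in neither mutant in whole embryos, and it was among the leading genes of the presomitic mesoderm. The part of mesoderm RNA or cells in the ectoderm sums was not tested. Also in ectoderm, the securin gene pttg1 was lower in gpc4 mutants than in wildtype (-0.73 ± 0.17, edgeR adjusted p = 0.071), and higher in dact1/2 than in gpc4 mutants (0.86 ± 0.19, edgeR adjusted p = 0.057). All comparisons of these genes with wildtype used replicates 2 to 4 only. With all 4 wildtype embryos edgeR called far fewer genes, 0.119% of all genes in whole gpc4 mutants and 0.0415% in whole dact1/2 mutants. The genes named here were not followed with all 4.

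At a finer resolution of 0.8, a cluster of 547 cells was found with 259 cells from gpc4 replicate 3. In that embryo rrm2 ENSDARG00000020711 stood at 249 CPM in the cluster and 144 in its other cells, and ENSDARG00000078069 at 221 and 147. Summed S-phase RNA of that embryo was at 3119 CPM in the cluster and 2392 in its other cells. In every other embryo, too, the S-phase sum was higher in the cluster. The cluster was led by rrm2, which is part of this sum, with olig4 and egr2b also among its leading genes. Neural cells of gpc4 replicate 3 had an S-phase sum of 3486 CPM, above that of the cluster. Neither rrm2 ID was higher in the cluster in every embryo. In wildtype replicate 3 ENSDARG00000078069 was at 103 CPM against 112, and in gpc4 replicate 1 ENSDARG00000020711 was at 64.2 against 67.3. The median cell of the cluster held 3203 UMIs.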
